A study of Mus musculus with 8 samples.

Results

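The genes described here are 7 antibody and B cell genes in mouse liver: the immunoglobulin heavy chain constant genes Igha (IgA) and Ighm (IgM), the kappa light chain constant gene Igkc, the joining chain gene Jchain, the B cell receptor chain genes Cd79a and Cd79b, and Pigr, the receptor that carries IgA across epithelial cells. They were chosen by symbol after the values of these same libraries were known, in which the log2 fold change of Igha ranked 36 of 14312, counted from the lowest. The difference between the groups is therefore given as a description, with no p-value for these genes. Of the 7 genes, 6 had values, out of 14317 mouse genes with values, and all 6 passed the filter on low values (a mean of at least 10) that left 14312 genes. The expression of Cd79a was not analysed here.

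The libraries came from whole livers, 1 library per mouse, of 4 mice given vehicle (Con-Veh) and 4 given DHT (Con-DHT), all fed a western diet (WD), and their comparison bears on androgen excess in females. DHT (dihydrotestosterone) is an androgen that cannot be turned into estrogen. All 8 mice were females of the control genotype, labelled WT. At 7 weeks of age they received a silastic pellet that was empty (Con-Veh) or filled with DHT over 10 mm (Con-DHT), were kept on WD for 8.5 weeks and were fasted overnight before the tissue was taken. The median library of Con-Veh held 15439690 reads on mouse genes (lowest 14240001, highest 17815944). In Con-DHT the median was 14375913 (lowest 13123962, highest 15205299). Values are normalized read counts, which are reads divided by 1 size factor per library, and are given as mean ± SD over the mice of a group.

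IgA is made by plasma cells, the antibody-secreting form of B cells, most of which sit in the lining of the gut. Plasma cells join IgA molecules into dimers through the J chain, and the polymeric immunoglobulin receptor encoded by Pigr takes up these dimers on the blood side of an epithelial cell and releases them on the other side; in the rodent liver, hepatocytes carry this receptor and move IgA from blood into bile. Naive B cells carry IgM on their surface together with the signalling chains CD79A and CD79B, and after a class switch the same cell lineage uses Igha or one of the IgG genes in place of Ighm. Nearly all mouse antibodies use a kappa light chain. Whole liver holds few B cells and plasma cells, and in such bulk samples fewer cells of a type and less RNA per cell cannot be told apart.

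Pigr is the only one of these genes that the hepatocytes themselves are known for, and its promoter is shown because the treatment was a steroid hormone. Promoters were found in the RefSeq table (GRCm38.p6) for 3 of the 7 genes, Pigr, Jchain and Cd79a. The 250 bases before the Pigr start lie on the plus strand at chr1:130826434-130826683, with capitals for the matches found on either strand to the motifs named next.
Pigr: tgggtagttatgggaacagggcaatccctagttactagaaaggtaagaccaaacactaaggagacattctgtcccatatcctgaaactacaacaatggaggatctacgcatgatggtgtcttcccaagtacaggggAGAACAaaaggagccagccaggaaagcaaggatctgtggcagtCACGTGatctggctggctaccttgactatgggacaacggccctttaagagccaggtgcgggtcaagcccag
The hexamer AGAACA, a core that some steroid hormone receptors can bind, begins 114 bases before the start. It occurs somewhere in the 300-base window (250 bases before to 50 after the start) of 19% of the 27025 promoters in the table. The E-box CACGTG, which USF proteins bind, begins 71 bases before the start and occurs in 7.24% of the windows. A match to TTCNNNGAA, the core of STAT sites, begins at base 40 after the start and occurs in 8.47%. The octamer ATTTGCAT, known from antibody gene promoters, occurs in 1.75% and was not matched in Pigr. Neither Jchain nor Cd79a had a match to any of the 4 motifs in its window. The motifs share no bases with each other in Pigr, and such matches describe letters only.

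Igha, on chromosome 12 from 113254830 to 113260236 (GRCm38, minus strand, annotated as an immunoglobulin constant gene), encodes the heavy chain constant part of IgA. Its normalized read count was 130.8, 97.5, 164.7 and 90.5 in Con-Veh livers 1 to 4. In Con-DHT livers 1 to 4 it was 23.5, 48.4, 33.7 and 16.3. All 4 Con-DHT livers lay below all 4 Con-Veh livers, with the lowest Con-Veh value 87.1% above the highest Con-DHT value. The means were 121 ± 34.1 in Con-Veh and 30.5 ± 13.9 in Con-DHT (SD, n = 4), which is 3.97-fold lower with DHT and a log2 fold change of -2.02 (SE 0.32) on the log2(value + 1) scale. These values rest on 611 reads over the 8 libraries, from 15 to 165 per library, so that counting error is a visible part of the spread in Con-DHT. Without any 1 of the 8 libraries the log2 fold change was between -2.27 and -1.77.

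Ighm, the IgM heavy chain constant gene, lies farther along the same locus, on chromosome 12 from 113418558 to 113422730. It was 52.8, 63.7, 38.9 and 46.1 in the Con-Veh livers and 48.1, 29.03, 39.8 and 45.7 in the Con-DHT livers. Here the groups overlapped, and only Con-DHT liver 2 lay below every Con-Veh liver. The means were 50.4 ± 10.5 and 40.6 ± 8.48 (SD, n = 4), with a log2 fold change of -0.31 and an SE of 0.22.

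Igkc, the kappa constant gene that IgA, IgM and IgG antibodies share, lies on chromosome 6 from 70726435 to 70726966. It was 118.7, 87.8, 112.8 and 91.4 in Con-Veh. In Con-DHT it was 36.3, 30.97, 81.6 and 55.4. The groups did not overlap, but the gap was small, with the lowest Con-Veh value 7.57% above that of Con-DHT liver 3. The means were 103 ± 15.4 and 51.1 ± 22.9 (SD, n = 4), with a log2 fold change of -1.08 and an SE of 0.28. The gene model Gm30211 overlaps Igkc on the same strand, and reads in the shared part cannot be assigned to either with certainty.

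Jchain encodes the J chain that links IgA dimers and IgM pentamers and lies on chromosome 5 from 88519809 to 88527891. It was 38.5, 27.99, 45.9 and 30.5 in Con-Veh and 12.8, 24.2, 31.6 and 19.6 in Con-DHT. Con-DHT liver 3, which was also highest for Igkc in its group, reached into the Con-Veh range. The means were 35.7 ± 8.15 and 22.0 ± 7.94 (SD, n = 4), with a log2 fold change of -0.72 and an SE of 0.29.

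Cd79b, a signalling chain of the B cell receptor that is carried by B cells more than by plasma cells, lies on chromosome 11 from 106311341 to 106314762. It was 23.1, 15.4, 13.0 and 21.8 in Con-Veh and 13.7, 4.84, 6.12 and 15.2 in Con-DHT. The groups overlapped, and the gene had 114 reads over all 8 libraries, the fewest of the 6 genes. It passed the filter through Con-Veh, since its mean in Con-DHT alone was below 10. The means were 18.3 ± 4.88 and 9.98 ± 5.26 (SD, n = 4), with a log2 fold change of -0.92 and an SE of 0.39.

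Pigr, on chromosome 1 from 130826684 to 130852249, ranked 68 of the tested genes by mean value and 108 per kilobase of exon. It was 25403, 31120, 28258 and 26786 in Con-Veh and 28326, 29605, 25897 and 20306 in Con-DHT. The ranges overlapped, with 3 of the 4 Con-DHT livers inside the Con-Veh range, and Con-DHT liver 4 was the lowest of all 8. The means were 27892 ± 2448 and 26033 ± 4116 (SD, n = 4), with a log2 fold change of -0.11 and an SE of 0.14. The sign of this small difference was not stable: it became 0.09 when libraries were scaled to the spike-ins and 0.0045 without Con-DHT liver 4.

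**Figure D1:**
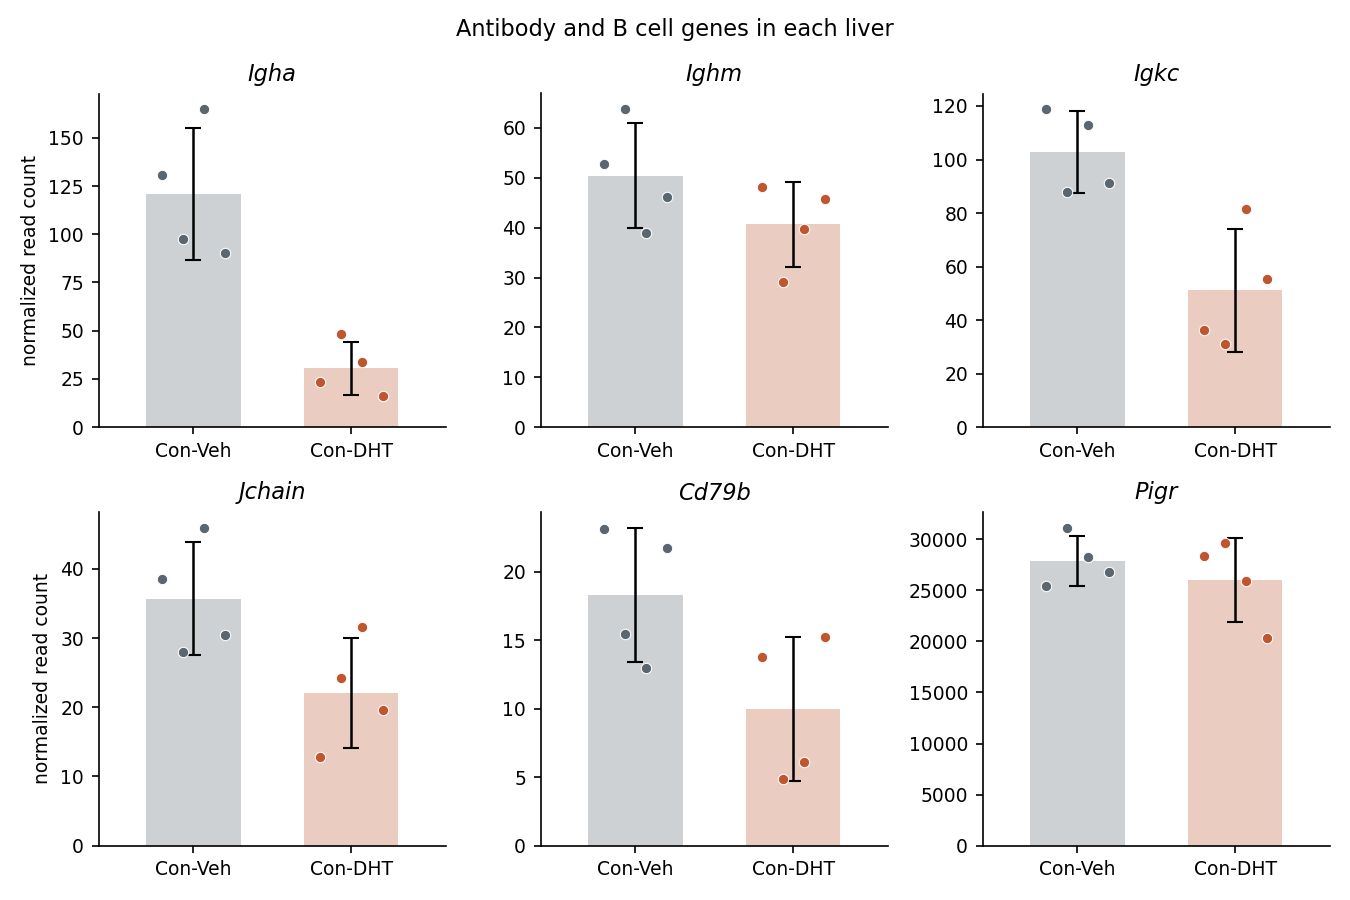
Normalized read count (y axis, each panel with its own scale from 0) of the 6 genes in Con-Veh and Con-DHT livers; points are single livers in the order 1 to 4 from left to right, bars are group means and error bars are SD (n = 4). The groups are apart for Igha and, by a small gap, for Igkc, and they overlap for Ighm, Jchain, Cd79b and Pigr.

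In the fit across all genes, 2 of the 6 genes, Igha and Igkc, were lower with DHT by limma, with Benjamini-Hochberg adjustment over all 14312 genes and a limit of 0.05, none was higher and 4 did not pass. Over all tested genes 2.61% were lower, 4.6% were higher and 7.21% passed in either direction. All 4 Con-DHT livers lay below all 4 Con-Veh livers for the same 2 genes, against 6.62% of all genes, and above them for none, against 8.49%. The mean was lower in Con-DHT for all 6, with a median log2 fold change of -0.82, beside -0.0081 for all tested genes. Since the genes were picked with this difference known, nothing is read from these counts. At an unadjusted p under 0.05, 4 were lower and none higher by limma, against 11% and 12.2% of all tested genes. By edgeR 1 was called lower, against 2.46% of all genes, and none higher, against 4.7%. By DESeq2 2 were called lower, against 4.52%, and none higher, against 6.45%. Igkc was no longer called in 5 of 13 other scalings, filters and tests and in 7 of 8 fits without a library.

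**Figure D2:**
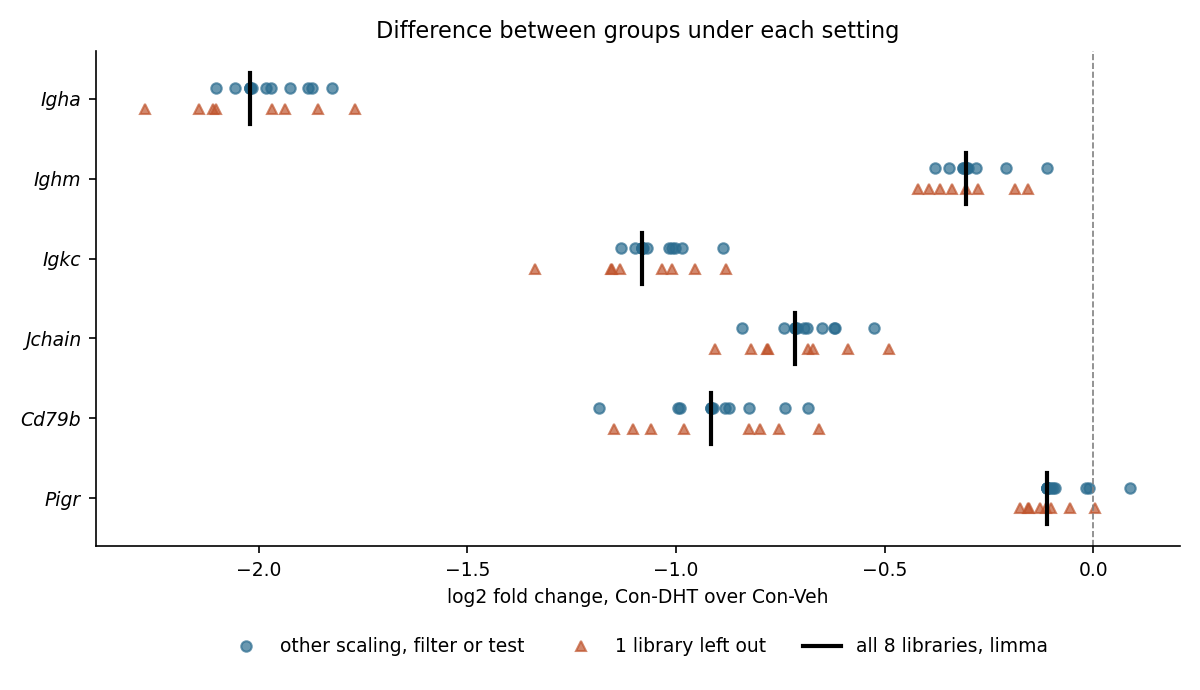
Log2 fold change of Con-DHT over Con-Veh (x axis) for each of the 6 genes (y axis); black bars are the fit of all 8 libraries with limma, circles are other scalings, filters or tests and triangles are fits without 1 library. Igha stays between -2.27 and -1.77 and Pigr lies around 0.

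Per kilobase of exon, the scale on which genes can be set beside each other, Igkc had the highest level of the antibody genes, at 193 in Con-Veh and 96.0 in Con-DHT. Igha followed in Con-Veh with 45.3 and Ighm with 26.7, and in Con-DHT the order of these means turned, with 11.4 for Igha and 21.5 for Ighm. Jchain (14.2 and 8.76) and Cd79b (12.8 and 6.97) were lowest. Pigr stood at 6930 in Con-Veh and 6468 in Con-DHT per kilobase.

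The makeup of the heavy chains was compared over the 4 classes with values, Igha, Ighm, Ighg2b and Ighg2c. IgA is the main antibody of mucosal surfaces, IgM the first class a B cell makes, and IgG2b and IgG2c are classes of the blood. Per kilobase, Igha made up 41.1% ± 6.24 of the heavy chain level in Con-Veh and 19.8% ± 8.40 in Con-DHT (SD, n = 4). Each Con-Veh liver had a larger Igha share than each Con-DHT liver, with 35.0% in the lowest Con-Veh liver and 31.7% in the highest Con-DHT liver, liver 2 of each group. The Ighm share was 25.1% ± 6.64 in Con-Veh and 38.6% ± 11.0 in Con-DHT, with overlap between the groups. The shares of Ighg2b (15.8% ± 2.47 and 18.6% ± 6.09) and of Ighg2c (18.0% ± 2.14 and 23.1% ± 5.67) overlapped as well. Because the shares sum to the whole, a lower share of Igha makes the others larger.

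**Figure D3:**
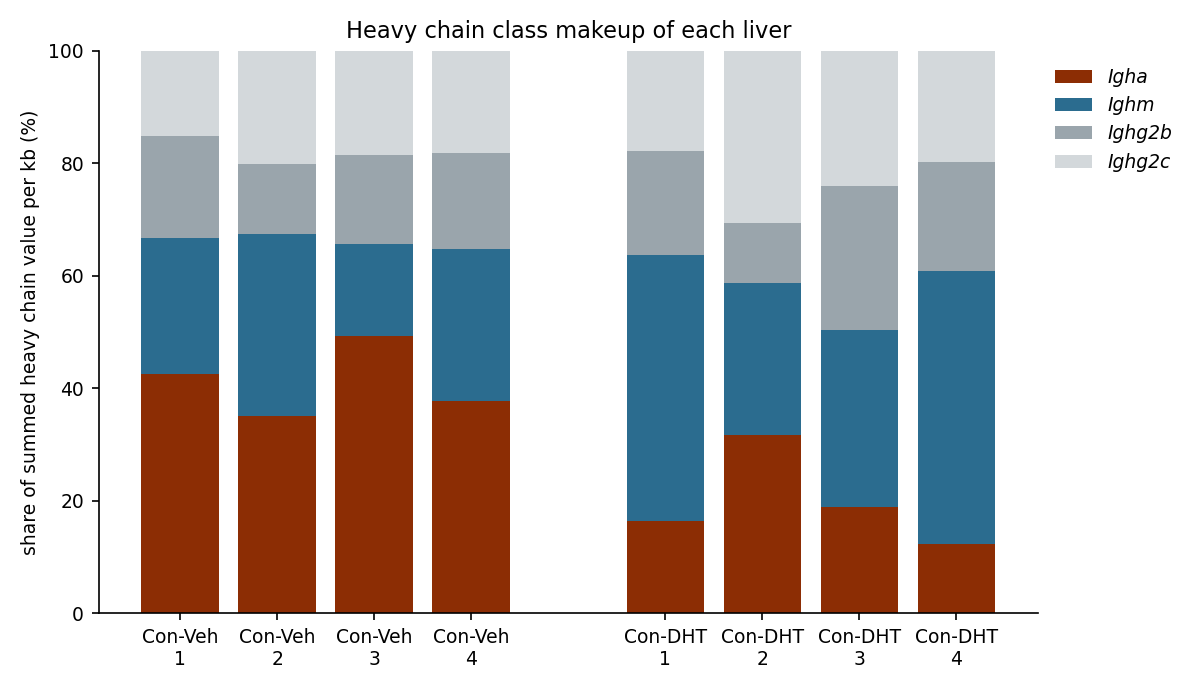
Share of each heavy chain class in the summed heavy chain level per kilobase of exon (y axis, percent) for each liver (x axis). Igha takes between 35.0% and 49.2% in Con-Veh livers and between 12.2% and 31.7% in Con-DHT livers.

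The IgG genes were also lower in mean without passing the test. Ighg2b was 46.2 ± 10.0 in Con-Veh and 28.7 ± 12.4 in Con-DHT (log2 fold change -0.73, adjusted p = 0.17 by limma). Ighg2c was 25.9 ± 4.28 and 17.6 ± 5.49 (-0.57, adjusted p = 0.23 by limma). The other 8 listed constant genes, among them Ighd, Ighg1 and the lambda genes, were not analysed here. The summed heavy chain value was 243 ± 39.3 in Con-Veh and 117 ± 16.9 in Con-DHT. Without Igha it was 122 ± 9.87 and 87.0 ± 15.8, so that the sum of the other classes also did not overlap between the groups (lowest Con-Veh 109, highest Con-DHT 107). Igkc per 100 of the summed heavy chain value was 42.4 ± 3.64 in Con-Veh and 43.0 ± 15.7 in Con-DHT, with a wider range in Con-DHT. Jchain per 100 of summed Igha and Ighm was 20.8 ± 2.39 in Con-Veh and 30.9 ± 10.3 in Con-DHT, with overlap.

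A single variable gene segment had values, the kappa segment Igkv12-46, on chromosome 6 from 69764523 to 69765022. Each B cell joins 1 of many variable segments to a joining segment and a constant gene, and the same segment is used by many unrelated B cells. Its direction was opposite to that of the constant genes, with values of 5.50, 3.86, 5.99 and 0.87 in Con-Veh and 22.6, 21.3, 17.4 and 18.5 in Con-DHT. Every Con-DHT liver lay well above every Con-Veh liver. The means were 4.05 ± 2.31 and 19.9 ± 2.42 (SD, n = 4), a difference of 2.21 in log2 (SE 0.43), from 16 reads in all of Con-Veh and 79 in Con-DHT. It passed the filter, and the limit of 81 summed reads that every feature of the table met, only through Con-DHT. A segment low in both groups could not have been seen, so its difference is given without a test. No other annotated gene overlaps it, and none of its 100-base stretches occurs in the transcript of another gene.

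Among genes that mark B cells or take part in antibody production and transport, 7 lists gave 88 distinct tested genes besides the members and Igkv12-46, with Ighg2b and Ighg2c among them. Of these, limma called 10 lower and none higher, against 2.61% and 4.6% of all tested genes. Their median log2 fold change was -0.20, beside -0.0081 for all tested genes. At an unadjusted p under 0.05, 29 were lower and 4 higher, against 11% and 12.2%. The calls were 9 lower and none higher with edgeR (2.46% and 4.7% of all genes). With DESeq2 they were 17 lower and 1 higher (4.52% and 6.45%). With limma on libraries scaled to the spike-ins they were 1 lower and 1 higher, beside 75 lower and 561 higher of 14317 genes. These shares over all genes also apply to each list count below. Of 25 listed B cell genes 11 were tested, and limma called 2 lower and none higher (median -0.29). At an unadjusted p under 0.05, 3 were lower and 2 higher, edgeR called 2 lower and none higher, and DESeq2 called 3 lower and 1 higher. Ly6d, a surface protein of B cell progenitors that other cells also carry, was 72.6, 75.3, 56.9 and 66.1 in Con-Veh and 19.6, 10.6, 14.3 and 20.7 in Con-DHT. In log2 it fell by 2.03 with DHT (SE 0.23), with an adjusted p = 0.00094 by limma, and its call was kept in all 12 alternatives that tested it. Bank1, a B cell scaffold protein, was lower by a smaller margin (28.003 ± 6.04 and 14.7 ± 1.68, adjusted p = 0.049 by limma), and its call was lost in 6 of 12 alternatives and in all 8 fits without a library. The most abundant gene of the list, Cd74, which all antigen-presenting cells express, was 879 ± 121 and 765 ± 256 (adjusted p = 0.52 by limma). Of the 11 tested genes 3 had a log2 fold change above 0 and did not pass by limma. Ebf1, a transcription factor of B cell development that other cells also express, was 26.5 ± 8.23 and 49.5 ± 16.3 (log2 fold change 0.87, adjusted p = 0.087 by limma), with 1 Con-Veh liver above the lowest Con-DHT liver, and was the gene that DESeq2 called higher (adjusted p = 0.043). Swap70 was 142 ± 19.2 and 175 ± 20.2 (adjusted p = 0.19 by limma), and Bach2, a transcription factor of B cells, was 106 ± 39.5 and 122 ± 49.5 (adjusted p = 0.78 by limma). Pou2f2 was 81.6 ± 13.8 and 50.8 ± 9.46 without overlap and did not pass by limma (log2 fold change -0.68, adjusted p = 0.054). DESeq2 called it lower (adjusted p = 0.022). Ebf1, Bach2 and Pou2f2 were singled out after their values were seen. The defining B cell genes Ms4a1 and Pax5 were not analysed here, and the label of a B cell signal rests on the antibody genes and Cd79b.

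Of 16 listed plasma cell genes 11 were tested, and limma called 2 lower and none higher (median -0.08). At an unadjusted p under 0.05, 3 were lower and none higher, while edgeR called 1 lower and DESeq2 called 3 lower, both with none higher. Sdc1, which encodes the plasma cell marker CD138 and is also a main heparan sulfate proteoglycan of hepatocytes, was 6055, 6040, 5423 and 6853 in Con-Veh and 3391, 3922, 4315 and 4110 in Con-DHT. In log2 it fell by 0.63 with DHT (SE 0.10), with an adjusted p = 0.0046 by limma. Cd38, an ectoenzyme of plasma cells and many other leukocytes, was lower (166 ± 19.5 and 118 ± 12.5, adjusted p = 0.049 by limma), with a call that was lost in 8 of 13 alternatives and in 7 of 8 fits without a library. Txndc5 and Xbp1, which serve protein secretion in plasma cells and in hepatocytes, did not pass (log2 fold changes 0.08 and -0.08). Only 6 of the 11 tested genes had a log2 fold change below 0. Irf4 (13.4 ± 4.49 and 22.5 ± 14.5, log2 fold change 0.54), Fkbp11 (0.40) and Ell2 (0.17) lay above 0 and did not pass by limma. Eaf2 (7.37 ± 3.58 and 13.6 ± 9.35) passed the filter only through Con-DHT, so that nothing is read from its direction. The plasma cell genes Prdm1, Mzb1 and Tnfrsf17 were not analysed here.

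Of 18 B cell receptor signalling genes 16 were tested, and limma called 1 lower and none higher (median -0.21), against 5 lower and none higher at an unadjusted p under 0.05. Calls were 1 lower by edgeR and 3 lower by DESeq2, with none higher. That gene, Bcl10, an adaptor on the way to NF-kB, was 233 ± 13.1 and 186 ± 1.37 (adjusted p = 0.048 by limma), and its call was lost in all 8 fits without a library. The kinase genes of the B cell receptor Syk, Lyn and Btk had log2 fold changes of -0.49, -0.13 and -0.42 and did not pass. Of 21 genes for IgA class switch, B cell survival and homing 11 were tested, and limma, edgeR and DESeq2 each called 1 lower and none higher (median -0.06), with 3 lower and 1 higher by limma at an unadjusted p under 0.05. Vcam1, an adhesion molecule of sinusoidal endothelium and macrophages that holds leukocytes with the integrin encoded by Itga4, was 435, 355, 316 and 307 in Con-Veh and 194, 182, 235 and 227 in Con-DHT. In log2 it fell by 0.75 with DHT (SE 0.13), with an adjusted p = 0.0084 by limma. Itga4 itself was 296 ± 32.05 and 236 ± 15.6 and did not pass (adjusted p = 0.082 by limma), and Cxcl12, a chemokine that keeps plasma cells in their niche, was 5898 ± 1101 and 5607 ± 672. Ccl28 of the same list (7.48 ± 5.19 and 13.3 ± 5.68) passed the filter only through Con-DHT, so that nothing is read from its direction.

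Of 21 genes for antibody transport and Fc receptors 19 were tested, and limma called 2 lower and none higher (median -0.19). At an unadjusted p under 0.05 there were 5 lower and 1 higher, and the calls were 2 lower by edgeR and 4 lower by DESeq2, with none higher. The 2 were Fcgr1, the high-affinity IgG receptor of macrophages (87.6 ± 14.5 and 50.04 ± 6.73, adjusted p = 0.019 by limma), and its signalling partner Fcer1g (92.5 ± 13.9 and 57.8 ± 4.56, adjusted p = 0.025 by limma). Both calls were lost without Con-Veh liver 2, Con-Veh liver 4 or Con-DHT liver 2, with an adjusted p by limma between 0.053 and 0.059 for Fcgr1 and between 0.065 and 0.075 for Fcer1g, and that of Fcer1g also without Con-DHT liver 4 (adjusted p = 0.062 by limma). Among the transport genes that hepatocytes express, Fcgrt, the neonatal Fc receptor, was 3340 ± 151 and 3263 ± 37.7, and Asgr1, a subunit of the asialoglycoprotein receptor, was 5879 ± 484 and 5162 ± 383 (adjusted p = 0.23 by limma). Of 19 known or candidate regulators of Pigr 18 were tested, and limma called 2 lower, among them Il17ra, the receptor of interleukin 17 (422 ± 25.5 and 326 ± 32.3, adjusted p = 0.036 by limma). Il17ra lost its call in 6 of 8 fits without a library. Usf1 and Usf2, whose proteins bind the E-box motif shown for Pigr, had log2 fold changes of -0.18 and -0.20 and did not pass.

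**Figure D4:**
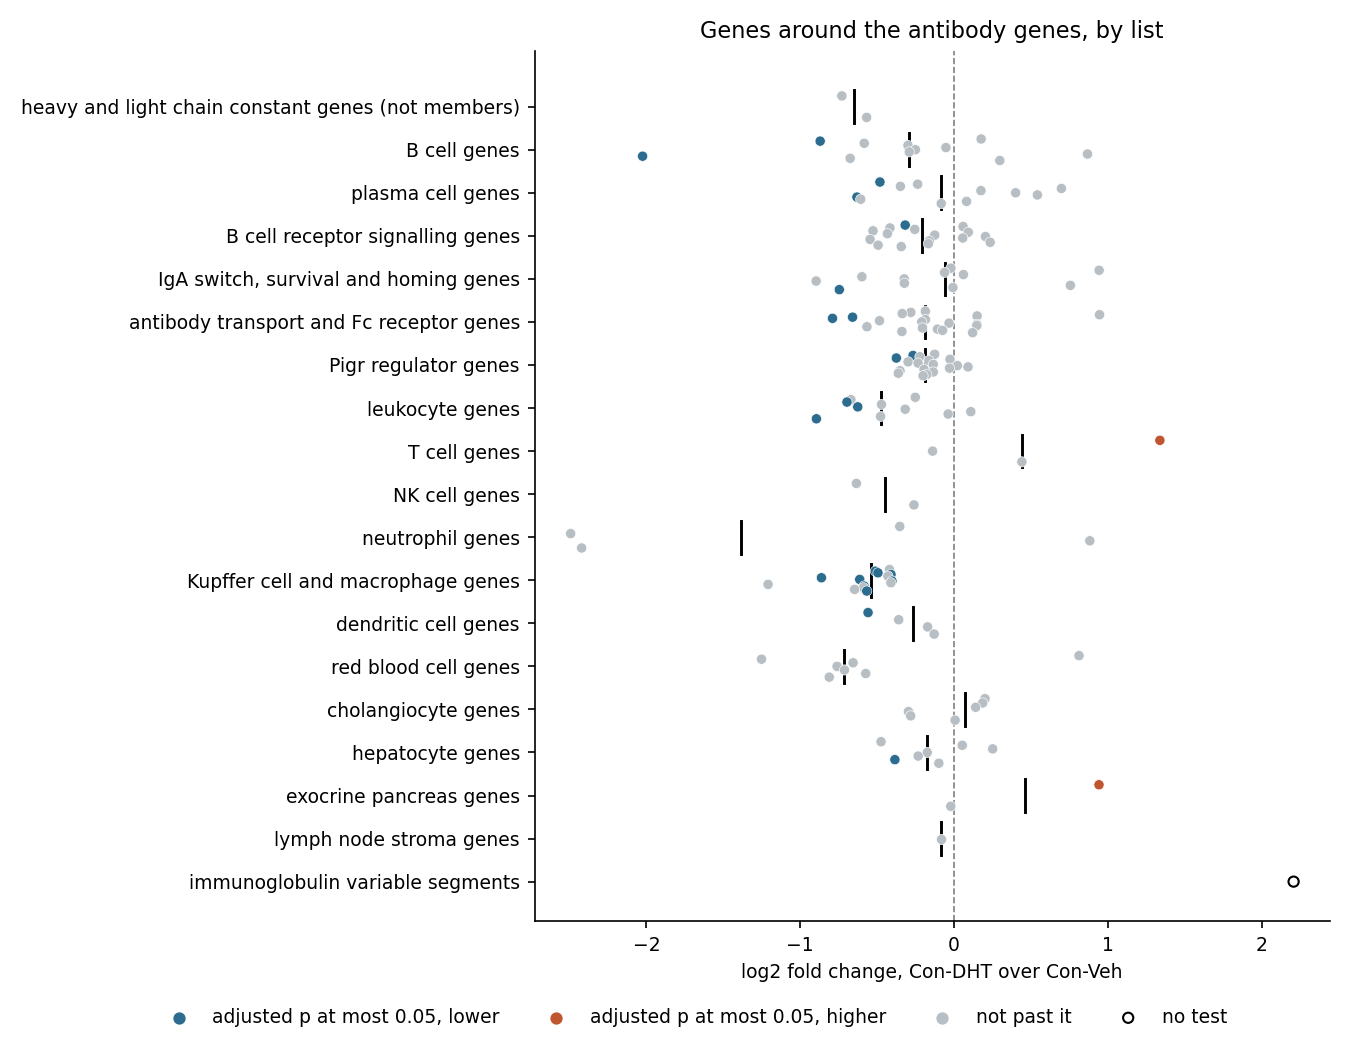
Log2 fold change of Con-DHT over Con-Veh (x axis) for each tested gene of each list (y axis); blue and orange points passed the limma test as lower or higher, grey points did not pass, the open circle is given without a test and black bars are list medians. Ly6d lies at -2.03 and the open circle, Igkv12-46, which passed the filter only through Con-DHT, at 2.21. All 14 Kupffer cell and macrophage genes lie below 0, among them Ly6c2, which passed the filter only through Con-Veh.

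Of the lists for other immune cells, those of leukocytes and macrophages had genes that limma called lower in Con-DHT. In the dendritic cell list, limma called Bst2 alone. The part of these lists in the lower Igha was not tested. Of 10 genes common to leukocytes, all were tested and 3 were lower by limma (median -0.47): Itgb2 (176 ± 4.56 and 114 ± 14.9, adjusted p = 0.011 by limma), Rac2 (142 ± 7.39 and 77.9 ± 22.1, adjusted p = 0.016 by limma) and Cd53 (89.8 ± 9.76 and 55.8 ± 12.7, adjusted p = 0.038 by limma). Itgb2 and Rac2 kept their calls in all 8 fits without a library, whereas Cd53 lost its call in 7 of them (adjusted p by limma between 0.061 and 0.11), all but the one without Con-DHT liver 1, and in 4 of 13 other scalings, filters and tests. Of the 10 genes 9 had a log2 fold change below 0, and 7 were lower by limma at an unadjusted p under 0.05, against 11% of all genes. For 6, all Con-DHT livers lay below all Con-Veh livers, against 6.62%. Lcp1, the most abundant, did not fall (1031 ± 44.5 and 1119 ± 154). The summed value of the 10 genes, led by Lcp1, was 2273, 2461, 2324 and 2265 in Con-Veh (2331 ± 90.7) and 2091, 1903, 2362 and 1901 in Con-DHT (2064 ± 217), so that Con-DHT liver 3 reached into the Con-Veh range. All 14 Kupffer cell and macrophage genes had log2 fold changes below 0 (median -0.54). Of these, 8 were called lower by limma, 8 by edgeR and 9 by DESeq2, against 2.61%, 2.46% and 4.52% of all genes. Among the 14, Ly6c2 (15.1 ± 4.85 and 5.87 ± 1.88) passed the filter only through Con-Veh, so that nothing is read from its direction. When libraries were scaled to the spike-ins, limma called 0 of the 14, with 2 lower at an unadjusted p under 0.05, although all 14 stayed below 0. The most abundant of them, Cd5l, which encodes a protein secreted by macrophages that binds IgM, was 2767 ± 368 and 1529 ± 280 (adjusted p = 0.0045 by limma). The summed value of this list was 11069, 11674, 9852 and 10853 in Con-Veh and 8647, 6517, 7433 and 7006 in Con-DHT. Of 8 dendritic cell genes 4 were tested and 1, Bst2, was lower (2665 ± 287 and 1802 ± 69.9, adjusted p = 0.0037 by limma), and led a summed value of 2757 ± 287 and 1878 ± 76.8. When libraries were scaled to the spike-ins, the calls of Itgb2, Rac2, Cd53, Cd5l and Bst2 were lost, as were those of Sdc1, Vcam1, Fcgr1 and Fcer1g, while that of Ly6d was kept.

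The antibody genes were also set against leukocyte genes of the same liver. Per 100 of Ptprc, the CD45 gene of all leukocytes, Igha was 82.1, 39.6, 89.2 and 55.6 in Con-Veh and 14.8, 43.5, 23.7 and 13.2 in Con-DHT, with Con-DHT liver 2 above Con-Veh liver 2. The means were 66.6 ± 23.1 and 23.8 ± 13.9 (SD, n = 4). Ighm per 100 of Ptprc was 27.1 ± 5.01 and 30.3 ± 4.68, and Igkc 56.8 ± 16.1 and 38.2 ± 15.9, both with overlap. Ptprc itself was 188 ± 40.2 in Con-Veh and 134 ± 20.8 in Con-DHT (log2 fold change -0.48, adjusted p = 0.11 by limma). Its groups were apart by a small gap (lowest Con-Veh 159.4, highest Con-DHT 158.9), so that each of these ratios also carries the difference in Ptprc. Per 100 of the summed leukocyte genes, Igha was 5.20 ± 1.51 in Con-Veh and 1.49 ± 0.74 in Con-DHT, without overlap (lowest Con-Veh 3.96, highest Con-DHT 2.54). That sum is led by Lcp1, which was 1031 in Con-Veh and 1119 in Con-DHT, while 9 of the 10 genes had a log2 fold change below 0.

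**Figure D5:**
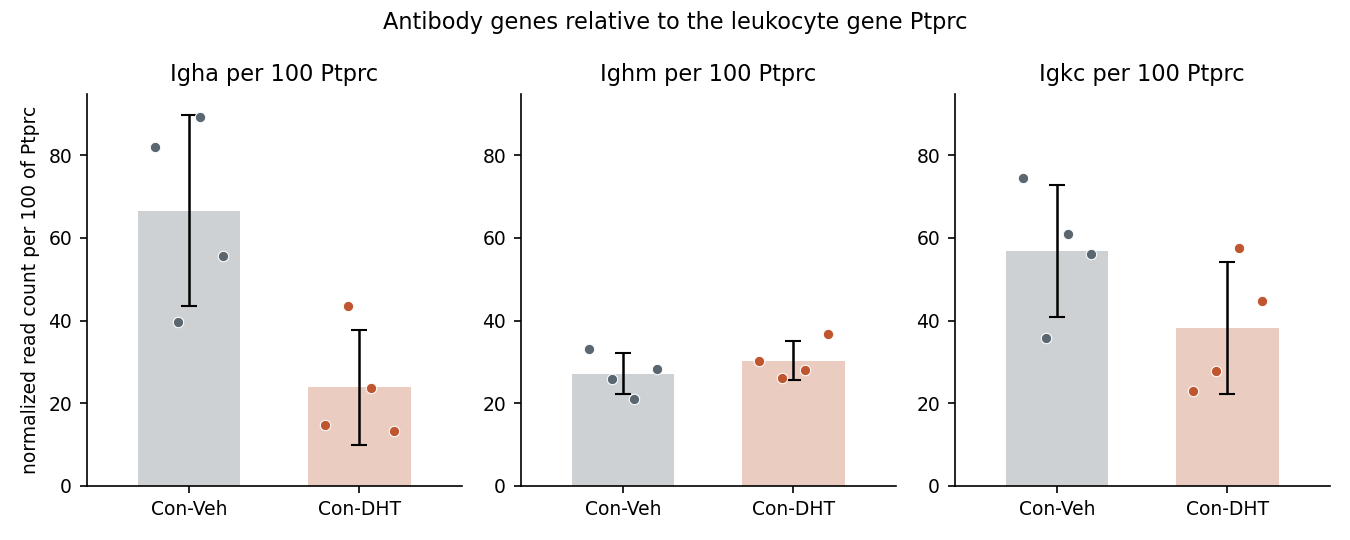
Normalized read count of Igha, Ighm and Igkc per 100 of Ptprc (y axis, from 0) in Con-Veh and Con-DHT livers; points are single livers in the order 1 to 4, bars are means and error bars are SD (n = 4). The mean ratio is 66.6 in Con-Veh and 23.8 in Con-DHT for Igha, and 27.1 and 30.3 for Ighm.

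The remaining lists covered other immune cells, red blood cells, and pancreas and lymph node tissue that could have been taken with the liver. Of 16 T cell genes 3 were tested, and Cd4, which macrophages can also express at a low level, rose from 11.4 ± 1.77 to 30.2 ± 4.23 (log2 fold change 1.34, adjusted p = 0.0066 by limma), while Thy1, the most abundant, and Lck did not pass. Cd3e, Cd3d and Trac were not analysed here. The summed T cell value was 74.3 ± 7.71 and 116 ± 29.3. Among NK cell genes 2 of 11 were tested and none passed by limma, edgeR or DESeq2, nor by limma at an unadjusted p under 0.05 (summed value 28.2 ± 5.89 and 20.7 ± 5.46), with Klrk1 the most abundant and Ncr1 not analysed here. The other, Gzma (12.9 ± 4.23 and 8.30 ± 4.10), passed the filter only through Con-Veh, so that nothing is read from its direction or from the sum. Of 12 neutrophil genes 4 were tested and none passed by limma or edgeR, while DESeq2 called 2 lower, as did limma at an unadjusted p under 0.05 or with spike-in scaling. Of the 4, Prtn3 (40.2 ± 36.2 and 4.87 ± 3.41) passed the filter only through Con-Veh, so that nothing is read from its direction. The summed value of the 4 genes, 1274 ± 1279 and 204 ± 129, was led by Lcn2 and was high in Con-Veh livers 1 and 2 (1806 and 2835). All 7 red blood cell genes were tested and none passed by limma or edgeR, while DESeq2, and limma with spike-in scaling, called 1 higher. At an unadjusted p under 0.05 limma gave 1 higher and 2 lower (summed value 8672 ± 3375 and 5876 ± 2049, led by Hba-a1). Of 13 exocrine pancreas genes 2 were tested, and Cela1 rose from 70.2 ± 10.7 to 140.5 ± 46.0 (adjusted p = 0.034 by limma), a call kept in 3 of 8 fits without a library. The summed value of that list was 84.1 ± 15.5 and 157 ± 36.7, and the acinar genes Cpa1, Cpb1 and Pnlip were not analysed here. Of 7 genes of lymph node stroma only Ltb was tested (12.5 ± 3.40 and 11.6 ± 2.60).

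The labelled tissue was checked with genes of the liver's own cells. Alb, the albumin gene of hepatocytes, had the highest value of its list, 928458 ± 301650 in Con-Veh and 640916 ± 62135 in Con-DHT, and of 7 tested hepatocyte genes 1, the antithrombin gene Serpinc1, was lower (adjusted p = 0.041 by limma), with a call kept in 1 of 8 fits without a library. None of 6 tested cholangiocyte genes passed by limma, edgeR or DESeq2, nor by limma at an unadjusted p under 0.05, and their summed value was 981 ± 70.2 and 984 ± 145, led by Spp1.

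Within the groups, the antibody genes followed each other in some pairs and not in others. With the group means removed, Pearson's r of log2 values over the 8 livers, given as a description, was 0.64 between Igha and Jchain, 0.83 between Igha and Ighg2c, 0.91 between Igkc and Ighg2b and 0.61 between Igkc and Jchain. It was -0.08 between Igha and Igkc, -0.76 between Igha and Ighm and -0.83 between Igha and Cd79b, while Ighm and Cd79b, the genes of naive B cells, stood at 0.66. Cd79b and Ighg2c stood at -0.99, and Jchain at -0.62 with Ighm and -0.65 with Cd79b. The points share their library and its size factor, and low counts add noise to each of these genes. Of all tested genes, those whose values ran most like Igha on this measure were A630052C17Rik (r = 0.98), Ddx5, Fhod3, Gm9917 and Cwf19l1, none of which passed the test between groups. For Jchain they were Sat1 (0.99), Fmnl2, Tulp3, Gtf3a and Zfyve21. For Pigr they were Azin1 (0.99), Tanc2, Cotl1, Tomm34 and Tmbim6, and of these Azin1 (1172 ± 63.4 and 1576 ± 158, adjusted p = 0.015 by limma) and Tanc2 (81.7 ± 5.54 and 135 ± 13.3, adjusted p = 0.0066 by limma) were higher in Con-DHT. With 8 livers and 14312 candidates, values this high describe the ranking only.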

How the data were processed

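The authors, per the study's methods and the submitters' processing notes, trimmed reads with Trimmomatic, aligned them with STAR (the notes name GRCm39), used featureCounts (Subread) to count reads that map to a single place within exons, and normalized with DESeq2. The deposited values are a normalized signal: reads per gene divided by a size factor per library, and 100% of values came out as whole reads (tolerance 0.1) when divided by the library's smallest step. Every feature in the table had at least 81 reads summed over the libraries, and genes below that were not analysed here. The library kit is not described as keeping strand, so that antisense reads cannot be told apart. Each library is a separate sample of its group per the labels. Libraries of 1 group differed by far more than sampling noise (chi-square per degree of freedom 19.2 to 61.6).

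Values were taken as log2(value + 1). The pseudocount of 1 shrinks differences of weakly expressed genes. The groups were compared with limma 3.58.1 (intensity trend) in R 4.3.3 over 14312 genes with a mean of at least 10, with Benjamini-Hochberg adjustment at 0.05. Alternatives were edgeR 4.0.16 and DESeq2 1.42.0 on the recovered reads, other pseudocounts (0.1 and 5), filters, scalings, weights, a block and leaving out each library. On simulated counts with 193 genes changed 4-fold among 14162, limma found 95.3% with 3.16% of calls false, edgeR 95.9% with 4.15% and DESeq2 97.4% with 18.3%. Symbols, positions and exon lengths came from GENCODE M21 (GRCm38), with symbols for 14287 genes. Python 3.11.15 was used for summaries.

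The members and gene lists were chosen with earlier results of these data known. Named were all members, every called gene and the 2 most abundant of each list, variable segments with values, and the 5 genes most correlated with Igha, Jchain and Pigr. Other list genes were named for their role after their values were seen. Some genes that the rule names, and a detail of the mouse line, are not reported here. SDs cover differences between animals and counting error. The depth limits genes with few reads: Cd79b had 5 to 25 reads per library. No batch is named in the labels.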

Additional observations from a re-analysis of the deposited data

Results flagged for a closer look

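In 8 of 158 groups of 4 livers tested, 1 liver stood far from the other 3, and chance alone marks about 1 in 20 groups. None of the 6 antibody and B cell genes was among them. Con-DHT liver 4 was high for the globin genes Hba-a1 (4475, against 2111 to 2434 in the other 3) and Hbb-bs (2737, against 1329 to 1545) and low for Cd38 (100.01, against 123 to 128). Con-DHT liver 1 was high for Pik3ap1 (1426, against 1133 to 1166) and Vsig4 (389, against 287 to 295). Con-DHT liver 3 was high for Lcp1 (1349, against 1023 to 1059), Con-Veh liver 3 for Swap70 (171, against 131 to 135) and Con-Veh liver 4 for Klrk1 (23.5, against 12.1 to 13.0).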

How the results depend on the processing

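All 6 genes kept the sign of their difference under every alternative that tested them, except Pigr, which turned to 0.089 under spike-in scaling and to 0.0045 without Con-DHT liver 4. Igha lay between -2.10 and -1.83 over 13 alternatives. The scaling mattered for the counts: the median log2 fold change of all genes moved from -0.0081 to 0.19 with spike-ins, so that changes there are relative to that shift, and 636 genes were called (561 higher, 75 lower) in place of 1032 (658 higher, 374 lower). With an equal total without the Mup genes, 1082 were higher and 208 lower. A mean of at least 50 gave 648 calls, DESeq2 gave 1569, and fits without 1 library gave 638 to 897. Of the 6 genes, 1 (Igha) was called in place of 2 with a mean of at least 50, without the Mup genes, with spike-ins, without the trend and with edgeR, and 1 to 2 without a library. Of the 89 list genes, a count that includes Igkv12-46 although its difference is given without a test, the 11 calls became 6, 6 and 3 with a mean of at least 50, without the Mup genes and with spike-ins, and 19 with DESeq2. Fits without 1 library left 4 to 9 calls. Shares of summed values instead of per kilobase gave Igha 49.0% in Con-Veh (41.1% per kilobase) and 25.7% in Con-DHT, Ighg2b 18.9% in Con-Veh (15.8%), and Ighg2c 10.7% in Con-Veh (18.0%) and 14.9% in Con-DHT (23.1%). Without Con-DHT liver 2 the Igha share of summed values in Con-DHT was 20.4%. With the replicate number as a block (replicate block), 700 genes were called, among them the same 2 of the 6 genes. Livers with the same number did not vary together (r between -0.19 and -0.0060), so that they share only a number. Kappa and lambda shares were not run, since no lambda constant gene had values. Among the other results, 131 values for single genes lost their call and 9 gained one, and 93 counts of calls per list moved. Where no cause shows, the cause was not tested.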
